A study of Mus musculus with 6 samples.

Results

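CpGs whose methylation moved in opposite directions in the 2 kinds of mouse induced pluripotent stem cells (iPSCs) were singled out from reduced representation bisulfite sequencing (RRBS). RRBS sequences bisulfite-treated DNA fragments from CpG-rich sequence, and the level of a CpG is the share of its reads that were read as methylated. A CpG was taken when, with the reads of both replicate libraries of a cell type added up, its level was lower in C-iPSCs than in mESCs by at least 0.15 and higher in 4F-iPSCs than in mESCs by at least 0.15, with at least 20 reads in each cell type. Of 1001531 autosomal CpGs with that many reads, 621 were taken (0.0620%). The members were therefore chosen by the C-iPSC, mESC, and 4F-iPSC levels themselves, which are given as a description without a test. Both shifts are measured against the same mESC libraries.

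C-iPSCs had been made from OG2-MEFs, embryonic fibroblasts of mice bred from C57BL/6J, CBA/CaJ, and 129S4/SvJaeJ, with small-molecule cocktails that began with VPA, CHIR99021, tranylcypromine, forskolin, AM580, EPZ004777, and an inhibitor of the TGF-beta type I receptor and later held DZNep, 5-aza-2'-deoxycytidine, and SGC0946. 4F-iPSCs came from OG2-MEFs infected with retroviruses for Oct4, Sox2, Klf4, and c-Myc, which stay in the genome of the cells. mESCs were the E14 line. Cells of each type were male and were grown in serum, LIF, and 2i (CHIR99021 and PD0325901) with mitomycin C-treated MEF feeders that were removed on gelatin before collection according to the labels, while the study's methods name gelatin-coated plates and no feeders. Passages were 5 to 10 for both iPSC types and 20 to 30 for mESCs, and since the E14 line also differs from the OG2-MEFs in origin, cell type, strain, and passage cannot be told apart. Nothing in the labels says that the 2 libraries of a cell type came from separate cultures, and the p-values given compare the reads of single libraries, so they cover the counting of reads and not the spread between cultures.

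Imprinted genes are expressed from the allele of a single parent. At most imprinted clusters this follows from a differentially methylated region (DMR) that is methylated in the egg or in the sperm and keeps that mark on the same allele after fertilization, while the rest of the genome is demethylated. Such a germline DMR is held by the zinc finger protein ZFP57, which binds the methylated hexamer TGCCGC and recruits TRIM28 and DNA methyltransferases. In cells that keep the mark, part of the reads of such a DMR is therefore methylated and part is not, whereas loss or gain on either allele moves the level towards either end of the scale.

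Of the 621 CpGs with opposite shifts, 250 lay in loci of 3 or more, with neighbors at most 1 kb apart. The other 371 lay in loci of 1 or 2. For 5 of the larger loci, the stretch of up to 300 bases outside annotated untranslated regions with the most such CpGs is printed. The values that follow turn on these loci. The sequences are from the RefSeq GRCm38.p6 genome, plus strand (+). Capitals mark the CpGs with opposite shifts. Gnas is shown at chr2:174300301-174300599 (exon and intron), Nap1l5 within Herc3 at chr6:58906624-58906888 (promoter), and Zfp629 at chr7:127611020-127611287 (exon). Grb10 is shown at chr11:12025810-12025904 (intron) and the Airn start within Igf2r at chr17:12742235-12742387 (promoter). The plain lower-case cg were either not compared or did not reach both shifts.
Gnas: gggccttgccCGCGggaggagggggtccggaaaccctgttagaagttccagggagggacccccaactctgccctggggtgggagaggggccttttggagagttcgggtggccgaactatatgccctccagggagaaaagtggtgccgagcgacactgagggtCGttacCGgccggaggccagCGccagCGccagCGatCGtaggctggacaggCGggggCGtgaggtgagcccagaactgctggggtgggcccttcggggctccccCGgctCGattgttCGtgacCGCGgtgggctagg
Nap1l5/Herc3: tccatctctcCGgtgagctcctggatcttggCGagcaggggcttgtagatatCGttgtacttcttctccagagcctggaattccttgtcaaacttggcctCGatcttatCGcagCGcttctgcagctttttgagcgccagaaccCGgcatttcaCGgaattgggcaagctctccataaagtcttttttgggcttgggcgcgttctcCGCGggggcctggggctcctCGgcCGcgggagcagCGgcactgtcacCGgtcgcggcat
Zfp629: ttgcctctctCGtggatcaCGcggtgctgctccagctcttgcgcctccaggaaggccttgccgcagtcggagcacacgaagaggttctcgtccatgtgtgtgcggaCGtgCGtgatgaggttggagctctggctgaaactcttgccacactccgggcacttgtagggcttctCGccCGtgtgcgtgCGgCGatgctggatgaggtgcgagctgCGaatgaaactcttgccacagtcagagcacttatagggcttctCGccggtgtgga
Grb10: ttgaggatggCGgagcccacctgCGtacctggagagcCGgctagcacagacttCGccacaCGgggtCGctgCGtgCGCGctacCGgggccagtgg
Airn/Igf2r: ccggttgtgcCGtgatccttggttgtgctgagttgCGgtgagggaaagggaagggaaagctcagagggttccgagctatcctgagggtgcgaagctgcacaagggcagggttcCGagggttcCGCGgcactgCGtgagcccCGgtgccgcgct
The Gnas stretch holds 15 of the 67 CpGs of its locus, the Nap1l5 stretch all 14, the Zfp629 stretch 10 of 16, the Grb10 stretch 10 of 21, and the Airn stretch 7 of 13. On both strands together, TGCCGC occurs 2 times each in the Nap1l5 and Airn stretches and 1 time in the Zfp629 stretch, and these letters are not in the Gnas and Grb10 stretches.

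The libraries held 91533371 and 84792206 reads on CpGs for C-iPSC replicates 1 and 2, 96534037 and 94215636 for 4F-iPSCs, and 75077465 and 53694199 for mESCs. The C-iPSC libraries stood apart from each other. Over the 382670 compared CpGs whose mESC level, 15% to 85%, leaves room for both shifts, the median level was 63.6% in C-iPSC replicate 1 and 75% in replicate 2, against 83.3% and 83.9% in 4F-iPSCs and 45.9% and 52.5% in mESCs. At these CpGs the medians of both iPSC types thus lay above those of mESCs. Of all 1001531 compared CpGs, 211407 were higher by at least 0.15 in both iPSC types. Promoters of the pluripotency genes Nanog, Pou5f1, and Zfp42 had levels from 2.54% to 7.40% in mESCs, 5.81% to 7.91% in C-iPSCs, and 9.57% to 18.2% in 4F-iPSCs, over 2, 6, and 7 compared CpGs. Those of the fibroblast genes Thy1, Col1a2, and Twist1 had 1.33% to 8.64%, 1.66% to 11.1%, and 2.12% to 16.0%. None of these promoters held a CpG with opposite shifts, Dppa3, Tdgf1, Col1a1, and Prrx1 had no compared CpG there, and the part of leftover feeder cells in the values was not tested.

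CpGs with opposite shifts were gathered at imprinted genes. Of the 621, 217 (34.9%) lay within 5 kb of the body of a gene on a list of 89 imprinted genes, written from general knowledge, of which 88 were found in the annotation, against 0.402% of all compared CpGs and 0.393% of those with room for both shifts. The gene lists were chosen with earlier results of these data known, so these shares are a description without a test. The 217 are not independent of each other, since they lie in 21 loci, 67 of them in a single Gnas locus, and share reads. Without C-iPSC replicate 2, 1721 CpGs met the rule and 12.8% of them lay at imprinted genes, and in the replicate block, with both shifts required within each replicate number, the values were 193 and 57.0%. Within 5 kb of the listed genes, 14.4% of the 1503 CpGs with room for both shifts had them, against 0.106% of the 381167 elsewhere. No such CpG lay within 5 kb of the listed genes for the methylation machinery (379 CpGs with room for both shifts), the pluripotency network (186), the Hox clusters (433), or fibroblast identity (293), and with so few CpGs a share of 0.106% would also give counts near 0. Among 25 germline genes there was 1, at Tdrd1, a Tudor gene of the piRNA pathway, with 45.0% in C-iPSCs, 60% in mESCs, and 75% in 4F-iPSCs over 25 to 40 reads. The reverse pattern, with C-iPSCs higher and 4F-iPSCs lower, held for 47 CpGs, of which 0 lay at imprinted genes, too few to set against 0.402%.

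Joined where neighbors were at most 1 kb apart, the 621 CpGs formed 363 loci, of which 21 lay at imprinted genes. Without C-iPSC replicate 2 there were 1402 loci, and in the replicate block 85. Of the 363, 315 were lone CpGs, 28 held 2, and 20 held 3 or more, and the CpGs lay on each of the 19 autosomes. At imprinted genes were 12 of the 20 loci, with 206 CpGs, and 12 of the 15 loci with 5 or more CpGs. The other 8 of the 20 held 44 CpGs. Among these 8 is a locus of 8 CpGs between Dlk1 and Meg3, in an imprinted cluster but more than 5 kb from a listed gene. In total, 26 of the 85 listed genes with compared CpGs had at least 1 CpG with opposite shifts within 5 kb. The 20 genes with 3 or more share the 12 loci, since neighbors such as Gnas and Nespas or Peg10 and Sgce count the same CpGs.

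Levels at the 12 imprinted loci are a description, since the rule chose their CpGs by the distance between the cell types. C-iPSCs ranged from 3.24% to 9.24% over the loci, mESCs from 22.8% to 38.4%, and 4F-iPSCs from 51.8% to 62.8%. The locus between Dlk1 and Meg3, counted elsewhere, had 14.9%, 39.7%, and 78.0% in the same order, above each of these ranges. The locus with the most CpGs was Gnas, at chr2:174297352-174300607, which encodes the stimulatory G protein alpha subunit and lies in a cluster with the antisense transcript Nespas. It had 67 CpGs with opposite shifts of 95 compared, in exons, introns, and promoters, and 14 of the 67 lay in a promoter. Its level was 6.55% and 7.56% in the C-iPSC libraries, 31.0% and 35.1% in the mESC libraries, and 53.6% and 59.9% in the 4F-iPSC libraries. The means were 7.05% ± 0.714, 33.1% ± 2.95, and 56.7% ± 4.47 (SD, n = 2 libraries each), over 9032 to 14054 reads per cell type.

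Other loci with many CpGs lay inside a host gene. Zrsr1, a paternally expressed splicing factor gene within Commd1, held 28 such CpGs at chr11:22971982-22972982, each of them in a promoter. The C-iPSC libraries had 3.63% and 2.93%, the mESC libraries 24.8% and 20.8%, and the 4F-iPSC libraries 49.5% and 61.9%. Nap1l5, within Herc3, held 14 at chr6:58906634-58906878, with 5.84% and 5.35% in C-iPSCs, 26.6% and 24.4% in mESCs, and 54.0% and 70.8% in 4F-iPSCs. The 4F-iPSC replicates were further apart at Nap1l5 than at the other 11 of the 12 imprinted loci, with an SD of 11.9 points. Nnat, the neuronatin gene within Blcap, held 15 in its promoter, with 4.85% and 6.46%, 23.4% and 26.4%, and 50.4% and 58.4% in the same order of cell types.

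Loci of growth regulators and of antisense or noncoding transcripts followed. Grb10, an adaptor that restrains insulin and growth factor signaling, held 21 CpGs in an intron at chr11:12025820-12026846, with 5.35% and 3.30% in C-iPSCs, 21.8% and 25.5% in mESCs, and 50.1% and 64.0% in 4F-iPSCs. Airn, the noncoding transcript that starts inside Igf2r, held 13 at chr17:12741590-12742377, with 3.93% and 2.72%, 29.3% and 35.4%, and 55.3% and 66.5%. Plagl1, a zinc finger growth regulator, held 10 at chr10:13090934-13091189, with 4.39% and 7.08%, 36% and 33.3%, and 50.6% and 59.1%. CpGs of the Airn and Plagl1 loci were in promoters. Meg3, the maternally expressed long noncoding RNA of the Dlk1-Dio3 cluster, held 8 in its promoter at chr12:109540591-109541071, with 6.80% and 11.9%, 39.9% and 36.9%, and 57.4% and 67.1%.

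The remaining imprinted loci held from 5 to 9 CpGs with opposite shifts. Peg10, a retrotransposon-derived gene that shares its promoter with Sgce, had 9 of 9 compared CpGs in 123 bp at chr6:4747363-4747485. Its C-iPSC and mESC replicates differed more than at the other 11 imprinted loci, with 7.5% and 0.658% in C-iPSCs and 18.5% and 29.9% in mESCs, while 4F-iPSCs had 58.4% and 59.5%. Impact, a regulator of translation, held 8 in an intron at chr18:12973131-12973506, with 2.84% and 4.10%, 28.4% and 24.0%, and 58.3% and 67.8%. Snrpn, a splicing factor gene of the Prader-Willi cluster, held 8 at chr7:60004580-60005229, with 7.32% and 6.61%, 31.0% and 33.8%, and 51.4% and 52.0%. Peg3, a zinc finger gene that shares its promoter with Usp29, held 5 at chr7:6730262-6730328, with 4.60% and 8.0%, 36.5% and 41.6%, and 54.6% and 60.3%. At 12 of the 12 loci, 4F-iPSC replicate 2 lay above replicate 1.

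**Figure D1:**
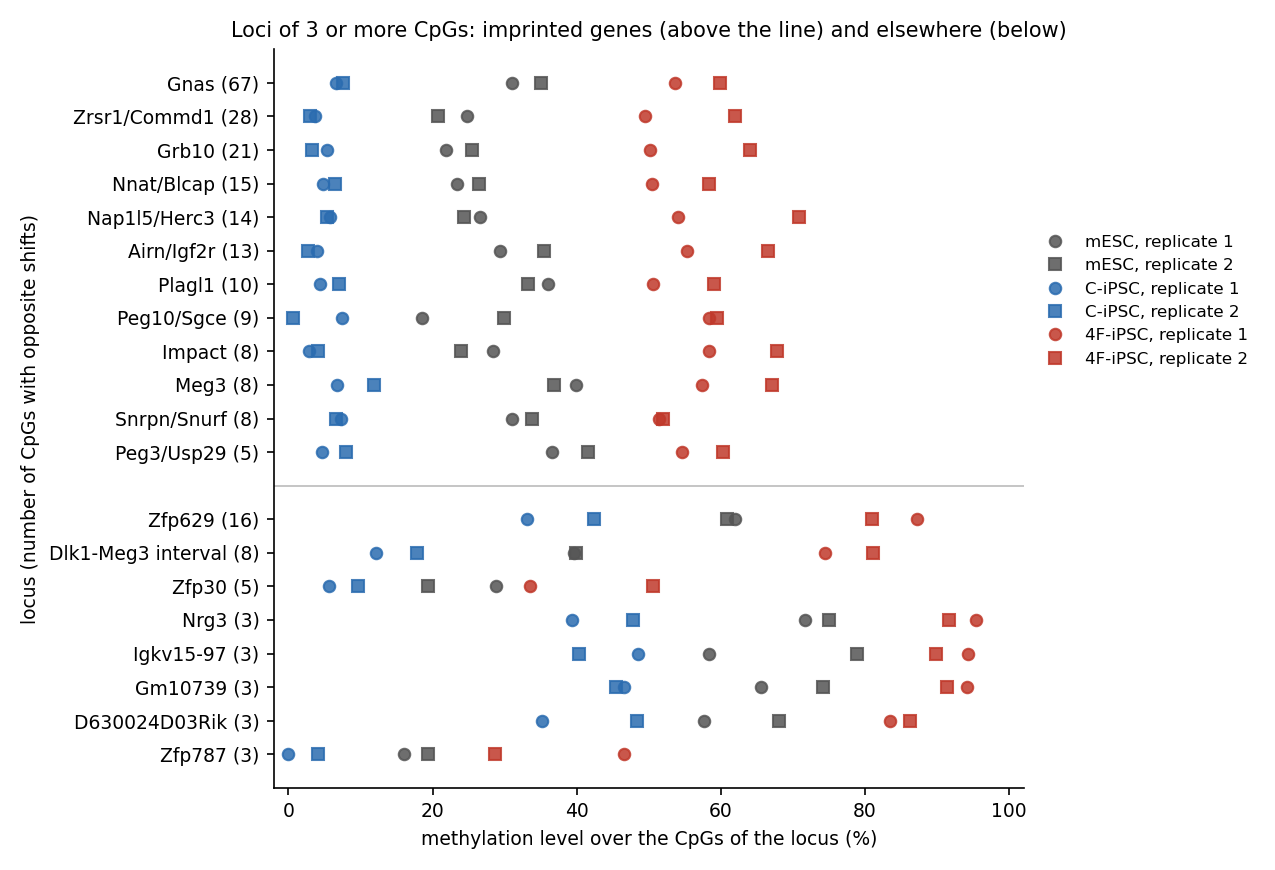
Methylation level (%) over the CpGs with opposite shifts at each of the 20 loci with 3 or more such CpGs, 1 point per library, with circles for replicate 1 and squares for replicate 2. Loci at imprinted genes are above the line and the 8 others below it, the number of CpGs is in parentheses, and at each locus both C-iPSC libraries lie below and both 4F-iPSC libraries above both mESC libraries.

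At the imprinted loci, other CpGs inside the spans and up to 1 kb outside had levels in the same order. Those inside lie between CpGs that met the rule and can share reads with them, so their order is not independent of the choice. In the spans of the 12 imprinted loci, 319 CpGs were compared, and the 113 that did not meet the rule had medians of 3.47% in C-iPSCs, 17.1% in mESCs, and 52.2% in 4F-iPSCs. Up to 1 kb outside the spans, the medians of 47 such CpGs were 6.78%, 25.9%, and 51.4%. From 1 to 2 kb outside, C-iPSCs were closer to mESCs, with 21.0% against 26.1% over 17 CpGs. From 2 to 5 kb, C-iPSCs were above mESCs, with 71.4% against 44.6% over 7 CpGs, and from 5 to 10 kb the medians of the 97 CpGs were between 2.38% and 2.96%. Inside the spans of the 8 loci elsewhere, the 34 CpGs that did not meet the rule had medians of 64.2% in C-iPSCs, 67.1% in mESCs, and 89.9% in 4F-iPSCs. Up to 1 kb outside these spans, 65 CpGs had 8.56%, 14.3%, and 39.6% in that order, and from 2 to 5 kb, 66 CpGs had 6.97%, 18.4%, and 14.3%. At Igkv15-97 the other CpGs of the span had 78.3% in C-iPSCs against 67.8% in mESCs, and at D630024D03Rik 70.2% against 67.1%, while at Zfp629 they had 43.7% against 71.5%. Within the Grb10 span the other compared CpGs had 3.58% in C-iPSCs, 15.8% in mESCs, and 51.4% in 4F-iPSCs.

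**Figure D2:**
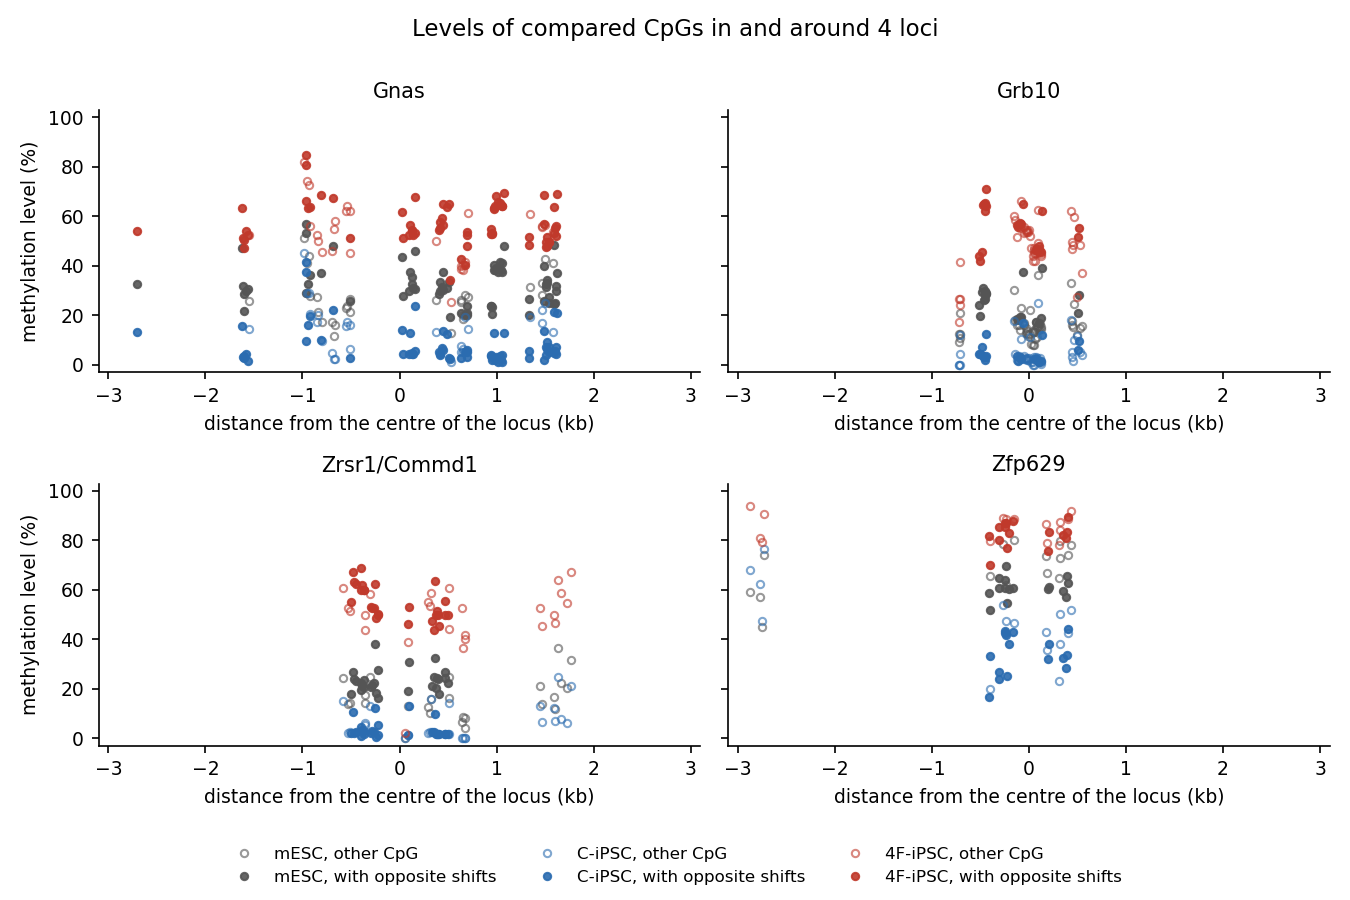
Methylation level (%) of each compared CpG against its distance (kb) from the centre of 4 loci, in mESCs (grey), C-iPSCs (blue), and 4F-iPSCs (red), with filled points for CpGs that met the rule and open points for the others. At Gnas, Grb10, and Zrsr1/Commd1 the blue points gather near the bottom, while at Zfp629 the C-iPSC level is 37.1% and the 4F-iPSC level 84.1% over the CpGs of the rule.

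Outside the listed imprinted genes, the locus with the most CpGs lay in an exon of Zfp629, which encodes a zinc finger protein. At chr7:127611030-127611844 it held 16 of 26 compared CpGs, with 33.1% and 42.4% in the C-iPSC libraries, 62.0% and 60.9% in the mESC libraries, and 87.2% and 81.0% in the 4F-iPSC libraries. Its levels thus lay well above those of the imprinted loci in each cell type. The next, at chr12:109525712-109526737, is intergenic and closest to the start of the predicted gene Gm27528, 4668 bp away. It lies between Dlk1 and Meg3, 62.4 kb from the body of Dlk1 and 14.3 kb from that of Meg3. The study places the germline DMR of the imprinted Dlk1-Dio3 cluster, the IG-DMR, between these genes. Since no listed gene lies within 5 kb, the locus is counted outside imprinted genes throughout, although it belongs to this cluster. There, 8 of 8 compared CpGs had opposite shifts, with 12.1% and 17.9% in C-iPSCs, 39.6% and 39.9% in mESCs, and 74.5% and 81.1% in 4F-iPSCs.

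The 6 other loci held fewer CpGs. An exon of Zfp30 held 5 CpGs at chr7:29793014-29793080, with 7.65% in C-iPSCs, 25% in mESCs, and 42.8% in 4F-iPSCs, and an exon of Zfp787 held 3 at chr7:6132791-6132911, with 1.43%, 17.2%, and 35.9% over 70 to 142 reads. The remaining 4 had 3 CpGs each, in intergenic sequence nearest to Nrg3 and D630024D03Rik, in the promoter of Igkv15-97, and in an intron of Gm10739. Their levels, 42.5% to 45.9% in C-iPSCs, 61.0% to 73.0% in mESCs, and 85.1% to 93.2% in 4F-iPSCs, were high, and at each of the 4 at least 2 CpGs lay in soft-masked sequence, which marks repeats.

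A further 9 loci at imprinted genes had 1 or 2 CpGs. They included a promoter CpG of H19, the noncoding RNA opposite Igf2, with 16.5% in C-iPSCs, 38.6% in mESCs, and 60.7% in 4F-iPSCs. A promoter CpG of Inpp5f had 0 methylated of 25 reads in C-iPSCs, 15.4% in mESCs, and 56.0% in 4F-iPSCs. An intron of Mest held 2, with 11.2%, 31.6%, and 56.1%, and a promoter CpG upstream of the Gnas locus had 13.2%, 32.6%, and 54.2%. A second Nnat locus held 2, with 9.34%, 32.3%, and 53.7%. Lone CpGs lay also at Kcnq1ot1 (25.5%, 54.1%, and 70.5%), Snhg14 (29.8%, 45.5%, and 68.7%), Meg3 (41.5%, 62.6%, and 81.5%), and upstream of Nnat (57.1%, 79.4%, and 95.2%), the last over 21 to 42 reads.

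Several imprinted genes held few or no CpGs with opposite shifts, and those described were picked after their values were seen. At Kcnq1ot1, the noncoding RNA inside Kcnq1, the 21 CpGs with room for both shifts had medians of 3.30% in C-iPSCs, 34% in mESCs, and 45.5% in 4F-iPSCs, so that C-iPSCs were far lower while 4F-iPSCs were higher by less than 0.15. At Peg13, a noncoding RNA inside Trappc9, they were 57.1%, 71.6%, and 71% over 17 CpGs, so that neither difference of the medians reached 0.15. At Mcts2, a retrogene within H13, they were 12.8%, 22.5%, and 29.2% over 2 CpGs, again with both differences under 0.15. At Platr12, by contrast, they were 6.21%, 16.0%, and 66.7% over 3 CpGs, with the shift in 4F-iPSCs alone. Genes such as Rasgrf1, Trappc9, and Begain had CpGs with room for both shifts but higher medians in both iPSC types, with 68.7% in C-iPSCs against 42.0% in mESCs at Rasgrf1. A CpG within 5 kb of an imprinted gene was thus not by itself one of the pattern, since 217 of the 1503 had it.

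Scattered CpGs differed from those in loci of 3 or more. The 371 CpGs in loci of 1 or 2 had medians of 40% in C-iPSCs, 60.7% in mESCs, and 86.7% in 4F-iPSCs, against 4.67%, 29.8%, and 58.5% for the 250 in loci of 3 or more. Of the scattered CpGs, 59.6% lay in soft-masked sequence and 84.4% in introns or intergenic sequence, against 5.20% and 19.2% of those in loci of 3 or more and 24% and 71.7% of all CpGs with room for both shifts. They had 14 CpGs per 500 bp around them as the median, close to the 11 of all CpGs with room for both shifts and against 34 in loci of 3 or more, and fewer reads, with a median of 57.0 in mESCs against 108. In 153 of the 371, at least 1 cell type had under 40 reads, against 23 of the 250.

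**Figure D3:**
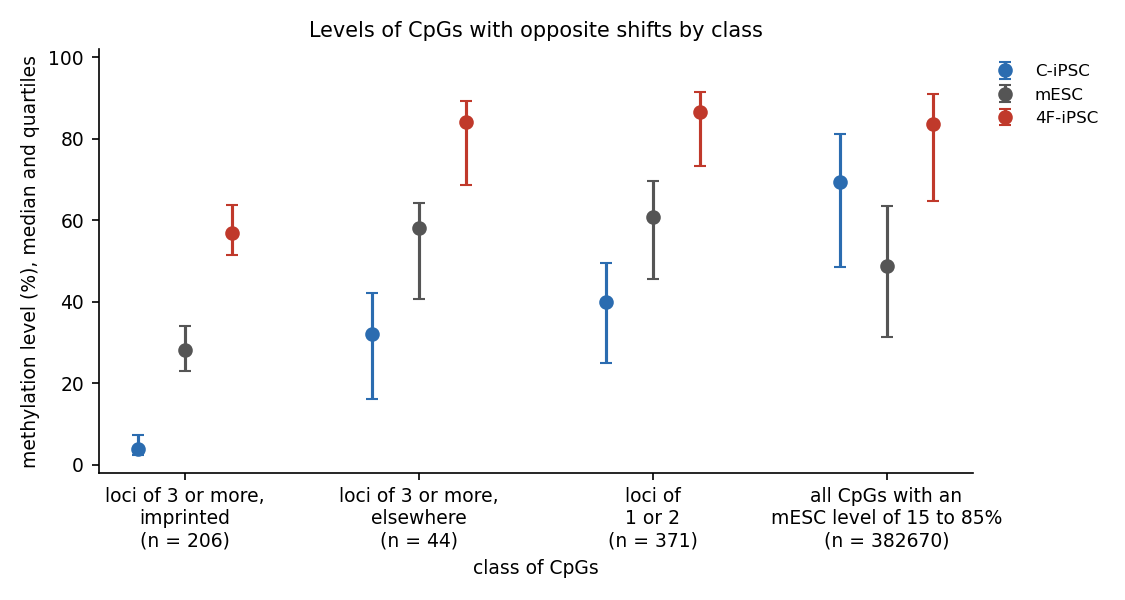
Methylation level (%) in C-iPSCs (blue), mESCs (grey), and 4F-iPSCs (red) for 3 classes of CpGs with opposite shifts and for the 382670 compared CpGs with an mESC level from 15% to 85%, with points at the median and bars from the lower to the upper quartile. Imprinted loci have a C-iPSC median of 3.91%, scattered CpGs 40%, and the CpGs at large 69.4%, above their mESC median of 48.8%.

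The order of the single libraries is a description, since the rule used the sums of the same levels. Both C-iPSC libraries were below both mESC libraries, and those below both 4F-iPSC libraries, at 453 of 518 members (87.5%) for which each library had 10 or more reads, where the background over all compared CpGs with such reads was 0.499%, and nothing is read from this count. On the separate DNA strands, with at least 10 reads on each, both shifts reached 0.15 on each strand at 163 of 347 CpGs.

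To measure the shifts in libraries that had no part in the choice, CpGs were chosen by the same limits in the 3 replicate 1 libraries alone and then tested in the 3 replicate 2 libraries, and the reverse. The 768959 autosomal CpGs at which each library had 20 or more reads entered, and a CpG was called when C-iPSC was below and 4F-iPSC above mESC with a Benjamini-Hochberg adjusted p under 0.05 in both two-sided Fisher's exact tests. Of 1097 CpGs chosen in replicates 1, 94 (8.57%) were called in replicates 2, against 0.0636% of all CpGs tested there. Of 535 chosen in replicates 2, 113 (21.1%) were called in replicates 1, against 0.0477%. Without a test, both shifts reached 0.15 in both sets of libraries at 147 CpGs, a single overlap that is 13.4% of those chosen in replicates 1 and 27.5% of those chosen in replicates 2, against 0.0696% of all in replicates 2 and 0.143% of all in replicates 1. With 1 library per cell type, the test compares libraries and not cell types.

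Imprinted genes carried most of the CpGs that came back. At imprinted genes, 55 of 130 CpGs chosen in replicates 1 were called again (42.3%), and 39 of 967 elsewhere (4.03%). Of the 55, 21 lay in the Gnas locus and 15 in the Zrsr1 locus. Of the 39, 4 lay in the Dlk1-Meg3 interval, which belongs to an imprinted cluster but is counted elsewhere. In the reverse direction it was 78 of 174 (44.8%) and 35 of 361 (9.70%). Of the 78, 30 lay in the Gnas locus, 19 in the Grb10 locus, and 10 in the Zrsr1 locus. At Peg10 0 of the 9 chosen CpGs were called, and at Airn 0 of the 5. Of the 35, 6 lay in the Dlk1-Meg3 interval. Over all CpGs tested at imprinted genes, chosen or not, 4.07% were called in replicates 2 and 3.85% in replicates 1, and over all elsewhere 0.0473% and 0.0323%, so that the chosen CpGs were above their own background in both places. In the unused replicate 2 libraries, the chosen CpGs of imprinted genes had medians of 4.35% in C-iPSC, 28.6% in mESC, and 60% in 4F-iPSC, against 3.76%, 28.5%, and 52.6% in the libraries that chose them. In the reverse direction, the unused replicate 1 libraries had 4.36%, 26.5%, and 51.3%, against 3.57%, 29.3%, and 59.0%, so that 4F-iPSC was higher in replicate 2 in either case. Neighboring CpGs share reads, so these CpGs are not independent trials, and intervals that treat them as such are too narrow.

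At scattered CpGs away from imprinted genes, the median C-iPSC shift was not kept in the unused libraries. The 915 chosen in replicates 1 had a median difference between C-iPSC and mESC of -18.2 points there and of 15.1 points in replicates 2, with C-iPSC at 65% and mESC at 50%. Their median 4F-iPSC difference was 21.2 points and then 32.2 points. Over all 279548 tested CpGs with an mESC level from 15% to 85% in replicates 2, the median differences there were 18.5 points for C-iPSC and 25.3 points for 4F-iPSC, and over the 290395 such CpGs in replicates 1 they were 11.8 and 27.3 points. C-iPSC was below and 4F-iPSC above mESC again at 207 of the 915 (22.6%), against 5.76% of all CpGs tested in replicates 2 and 5.89% of those with room for both shifts there, and 31 (3.39%) were called. For the 339 chosen in replicates 2, the median C-iPSC difference was -18.8 points in those libraries and -1.56 points in replicates 1, both directions held again at 167 (49.3%), against 8.56% of all CpGs tested in replicates 1 and 11.8% of those with room for both shifts there, and 25 (7.37%) were called. C-iPSC replicate 2 is also the library with the higher level over all CpGs. With it left out of the sums, 1721 CpGs met the rule, 220 of them at imprinted genes, and with C-iPSC replicate 1 left out 447 did, 174 of them at imprinted genes.

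Loci were also followed into the unused libraries. In replicates 1, the chosen CpGs formed 20 loci of 3 or more, 10 of them at imprinted genes, and the C-iPSC level over the CpGs of the locus was again below and the 4F-iPSC level again above the mESC level in the unused libraries at 10 of these 10 and at 7 of the 10 others. In replicates 2 they formed 18, and the directions held again at 13 of 13 imprinted loci and 5 of 5 others. Both shifts of the locus reached 0.15 again at 7 of the 10 imprinted loci and 4 of the 10 others chosen in replicates 1, and at 6 of 13 and 2 of 5 chosen in replicates 2. Each CpG of the locus did so at 0 of the 20 and 1 of the 18 loci, and at least 1 CpG did so at 17 and 14. No share over other stretches of the genome stands beside these counts of loci, so they are a description only. Zfp629 and the Dlk1-Meg3 interval were among the loci in both directions. At Zfp629, the 17 CpGs chosen in replicates 1 had 44.4% in C-iPSC, 63.5% in mESC, and 81.6% in 4F-iPSC in replicates 2, and 5 of them reached both shifts again. At the Dlk1-Meg3 interval, 6 of 7 did, with 18.5%, 40.3%, and 82.0%.

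**Figure D4:**
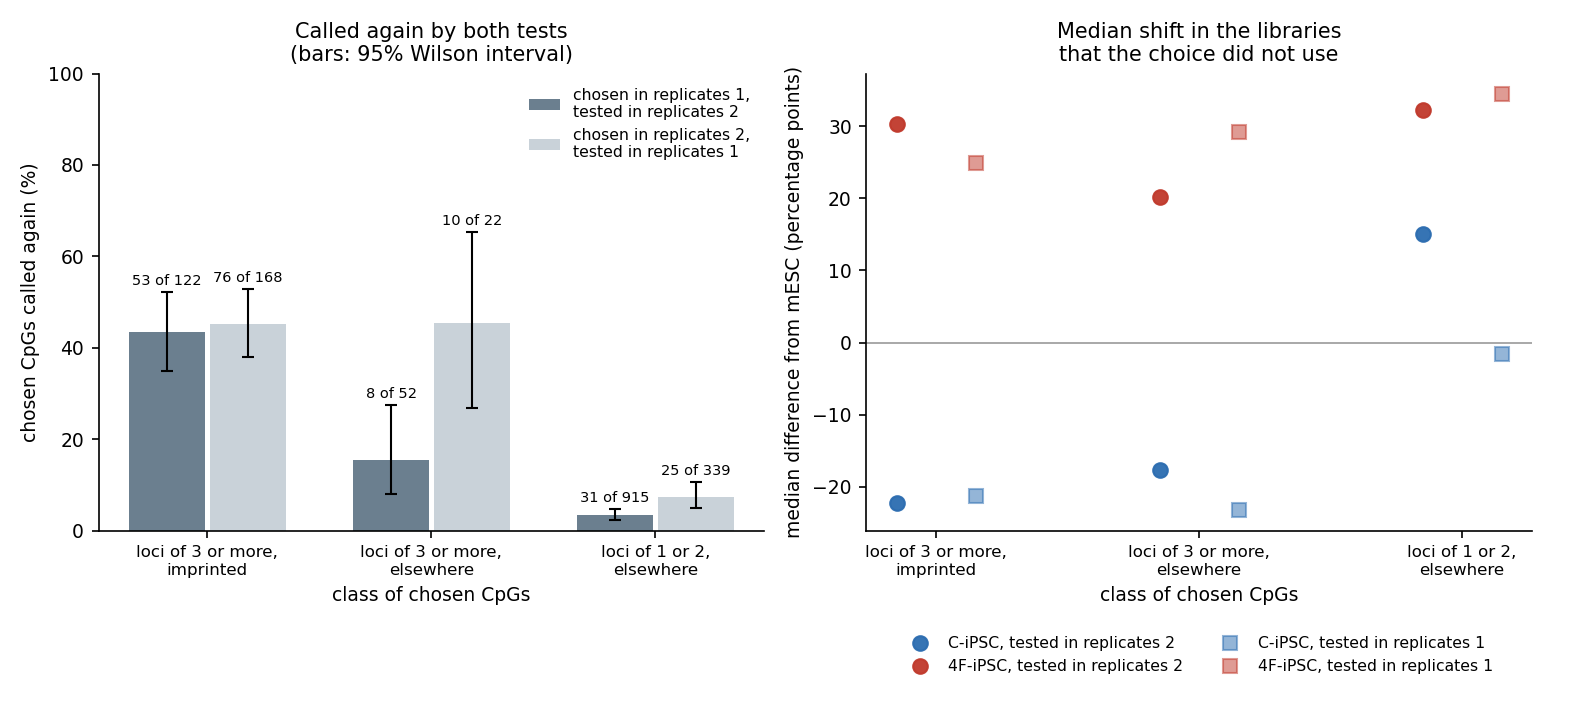
Left, CpGs chosen in the libraries of 1 replicate number that were called again in those of the other (%), by class, with the counts above the bars and 95% Wilson intervals that treat CpGs as independent and are thus too narrow. Right, the median difference from mESC (percentage points) of C-iPSC (blue) and 4F-iPSC (red) in the libraries that the choice did not use, where the C-iPSC point of scattered CpGs is at 15.1 in replicates 2 and at -1.56 in replicates 1.

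The hexamer TGCCGC, on either strand, was found within the 500 bp around 177 of the 250 CpGs in loci of 3 or more (70.8%), which were 140 of 206 at imprinted genes and 37 of 44 elsewhere. It was found around 29.4% of all compared CpGs, 11.2% of those with room for both shifts, and 20.2% of the scattered CpGs with opposite shifts. These windows differ in CpG content, with medians of 34 CpGs in loci of 3 or more, 31.0 for all compared CpGs, and 11 for those with room for both shifts, and were not matched for it. Of the 20 loci, 18 had the hexamer in the window of at least 1 CpG, and 11 of the 12 at imprinted genes. The exceptions were Zrsr1/Commd1, where none of the 28 windows held these letters, and Gm10739. A locus holds from 3 to 67 such windows, so a match in at least 1 of them is likelier than in a lone window. No share over other stretches of the genome stands beside these counts of loci. A match is a description of the sequence and not a site of binding.

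At the limit of the rule, 227 CpGs had a smaller shift of 15 to 17 points and 350 one of 13 to 15 points. Just inside, the median levels were 36.4% in C-iPSCs, 53.8% in mESCs, and 79.1% in 4F-iPSCs, and just outside 39.9%, 55.1%, and 78.8%. Of those inside, 50 lay at imprinted genes, and of those outside 45.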

How the data were processed

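RRBS was done on 2 libraries per cell type, read in pairs. The authors aligned the pairs to mm10 with BSMAP 2.90, as the submitters' processing notes name it, kept those mapped uniquely, and called CpGs with MOABS. The deposited counts per CpG, total and methylated, were used unnormalized. The deposited methylated fraction served as a check and equaled their ratio within rounding. Every autosomal CpG with a read was CG in GRCm38.

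Genes, promoters (1000 bp to each side of a start), exons, introns, and untranslated regions came from the GENCODE vM21 basic annotation, and sequence and soft-masking from RefSeq GRCm38. The members and gene lists were chosen with earlier results of these data known. Loci of at least 3 CpGs were named by the gene that holds their centre or by the nearest start within 50 kb. The 12 with the most CpGs and those at listed imprinted genes are given in full. Fisher's exact test, Benjamini-Hochberg adjustment, and Wilson intervals were computed with Python 3.11.15, NumPy 2.4.6, Numba 0.67.0, and SciPy 1.17.1 and tested on simulated data. An exact permutation test of 2 libraries against 2 cannot give a two-sided p below 0.333 and was not used. Alternatives were the read minimum, the shift, the gap, single strands, means of libraries, blocks of replicates, and each library left out. Gene expression was not analysed here.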

Additional observations from a re-analysis of the deposited data

Results flagged for a closer look

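On the X chromosome, which the rule leaves out, 97 of 25974 CpGs with at least 20 reads in each cell type met the same limits (0.373%), against 0.0620% on the autosomes, and 1 had the reverse pattern. They formed 84 loci, 2 of them with 3 or more CpGs. Their medians were 40% in C-iPSCs, 61.9% in mESCs, and 90.3% in 4F-iPSCs. The libraries took the same order at 68 of the 78 with at least 10 reads in every library. The limits used the sums of the same levels and no share over all X CpGs is given, so nothing is read from this count. At the 20 autosomal loci with 3 or more CpGs, both C-iPSC libraries moved down and both 4F-iPSC libraries up from both mESC libraries at 20. This difference between the iPSC types was not tested, since the rule chose the loci by it.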

How the results depend on the processing

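The CpGs with opposite shifts numbered 1077 with a minimum of 10 summed reads, 1994 with a shift of 10 points, 195 with a shift of 20 points, and 163 on each strand by itself. The loci numbered 783 with 10 reads, 215 with 40 reads, 1458 with a shift of 10 points, 87 with a shift of 20 points, and 65 on each strand. Loci with 3 or more CpGs numbered 22 and 19 with 10 and 40 reads, 47 and 12 with shifts of 10 and 20 points, 11 on each strand, and 29 and 21 with gaps of 300 bp and 5 kb. The share at imprinted genes was 20.8% and 44.5% with 10 and 40 reads, 16.7% and 53.8% with shifts of 10 and 20 points, 41.7% with the mean of both libraries, and 58.3% on each strand. With a library left out, the CpGs ranged from 445 to 1721, the loci from 246 to 1402, the loci with 3 or more from 16 to 30, and the share at imprinted genes from 12.8% to 41.1%. The highest counts and the lowest share came without C-iPSC replicate 2. The causes were not tested.

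The deviations of same-numbered libraries from their group means correlated over 285973 CpGs at -0.160 for mESCs and C-iPSCs, -0.330 for mESCs and 4F-iPSCs, and 0.129 for the iPSC types. Under the replicate block, with both shifts within each replicate number, there were 193 CpGs in 85 loci, 12 of them with 3 or more, and 57.0% of the CpGs were at imprinted genes. With the pairing crossed for mESCs, chosen after seeing the data, there were 180 CpGs, 71 loci, 14 of them with 3 or more, and 58.3% at imprinted genes.

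The share called again in replicates 2 was 5.57% and 17.3% with minimums of 10 and 40 reads per library, 15.1% with a shift of 20 points when choosing, and 13.4% without a test. In replicates 1 it was 11.6%, 36.8%, 32.6%, and 27.5%. With 40 summed reads 445 of the 621 CpGs remained, 198 of the 217 at imprinted genes.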

Other observations

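The 2240 CpGs that were lower in C-iPSCs by at least 0.15 with 4F-iPSCs within 0.15 of mESCs were also found at imprinted genes more often than compared CpGs at large, with 84 (3.75%) against 0.402%. Their medians were 18.2% in C-iPSCs, 38.5% in mESCs, and 35.8% in 4F-iPSCs. In promoters lay 35% of them, against 54.1% of all compared CpGs and 12.6% of those with room for both shifts. The 892 CpGs lower in both iPSC types included 3 at imprinted genes (0.336%), and of the 211407 higher in both, 608 were there (0.288%). The 47 CpGs with the reverse pattern formed 32 loci, 2 of them with 3 or more CpGs and the longest with 6. These sets were defined by the same levels and are a description without a test.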
